A study of Mus musculus with 6 samples.

Results

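The Slc25 genes encode the mitochondrial carrier family, and their messenger RNA was examined in Raw264.7 macrophages with and without knockdown of *Etv5*, which encodes an ETS family transcription factor. Members were taken as every gene symbol that starts with *Slc25a* followed by a number, apart from *Slc25a20*, which gave 46 of the 24786 symbols measured. The rule reads the symbol and no expression value, although it was set with earlier results of these data known. Raw264.7 is a mouse macrophage line derived from a tumor induced by Abelson murine leukemia virus. Its labels give the strain C57BL/6 and an age of postnatal day 21. The paper names C57BL/6 for its mice and gives no strain or age for this purchased line, so both labels are uncertain for it. The cells had received lentivirus in the presence of a Lipofectamine reagent, carrying either a control short hairpin RNA (sh-NC, genotype control) or a hairpin against *Etv5* (sh-*Etv5*, genotype Etv5 knockdown). According to the methods, infected cells were selected with puromycin. The labels give both 24 and 48 hours after infection without saying which holds for these libraries, and they do not say which hairpin was used. The paper, however, describes the sequenced cells as stably transfected, and its methods describe passage under puromycin. Each group had 3 libraries. Nothing states that they came from separate infections, so p-values measure the spread between libraries, which may be technical.

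Carriers of this family sit in the inner mitochondrial membrane, where they move nucleotides, phosphate, carboxylic acids, amino acids, cofactors and iron between the cytosol and the matrix. Each is a small protein built from a repeated unit that spans the membrane, and most exchange a solute on one side for another on the other side. In macrophages they link the tricarboxylic acid cycle and oxidative phosphorylation to cytosolic reactions such as lipid synthesis, which uses citrate exported from mitochondria.

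Expression was measured as RPKM (read coverage divided by gene length and by the mapped reads of the library), a scale on which different genes can be set side by side. The number of reads behind each library is unknown. Log2 fold changes are sh-*Etv5* minus sh-NC on log2(RPKM + 1), which understates the change of low genes. A gene was tested where its RPKM was 1 or more in 3 or more libraries, and it was called at a limma adjusted p under 0.05. *Etv5* itself, the target of the hairpin, measured 9.18, 9.89 and 9.39 RPKM with sh-NC against 5.19, 4.91 and 5.28 RPKM with sh-*Etv5*. The groups did not overlap, and the log2 fold change was -0.78 (SE 0.0565, limma adjusted p = 2.74e-07). Of the 50-base sequences in the *Etv5* exons, 24.5% also occur in another annotated gene, *Gm4798*, so the level of *Etv5* is uncertain.

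All 8 macrophage markers were examined as a check on the label, and 7 of them passed the filter. The summed marker level was 3715 to 3803 RPKM in sh-NC and 2686 to 2769 RPKM in sh-*Etv5*, so the libraries of both groups held abundant macrophage transcripts. *Lyz2* made up most of these sums, with means of 2834 RPKM in sh-NC and 2041 RPKM in sh-*Etv5*. *Itgam* (33.8 to 127 RPKM) and *Adgre1* (2.60 to 11.3 RPKM) rose, *Lyz2*, *Csf1r*, *Cd68* and *Fcgr1* fell, *Ptprc* was not called, and *Mertk* stayed at or below 0.0653 RPKM. The 5 neutrophil markers summed to 0.123 to 0.491 RPKM in sh-NC and 15.6 to 19.7 RPKM in sh-*Etv5*. *S100a8* made up nearly all of that sum, while *Ly6g*, *S100a9* and *Elane* were listed at 0 in every library. Lymphocyte, fibroblast and epithelial markers summed to at most 0.367 RPKM in any library. The part of these marker differences in the values below was not tested. In bulk RNA, fewer cells of a type and less RNA per cell cannot be told apart.

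Among the 46 members, transcript was concentrated in a few genes, mostly carriers of adenine nucleotides and phosphate. Family sums, shares and places here and below cover these 46 members only. *Ucp2*, a carrier of the same family outside the symbol rule, was at 443 RPKM in sh-NC and 367 RPKM in sh-*Etv5*. It was thus above *Slc25a3* in both groups. In sh-NC cells, *Slc25a5* was at 526 ± 12.1 RPKM, *Slc25a3* at 288 ± 1.59 RPKM, *Slc25a4* at 161 ± 3.34 RPKM and *Slc25a39* at 110 ± 1.96 RPKM (SD, n = 3). These 4 genes held 72.8% of the summed RPKM of the 46 members in sh-NC cells and 65.5% in sh-*Etv5* cells, and their order was the same in both groups. Neighbors in that order were separated by far more than the spread between libraries. Below them the carriers of oxoglutarate (*Slc25a11*) and citrate (*Slc25a1*) came next in both groups, at 48.6 ± 1.76 and 38.6 ± 0.472 RPKM in sh-NC cells. The number of members at 1 RPKM or more was 33 to 35 in each library.

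**Figure D1:**
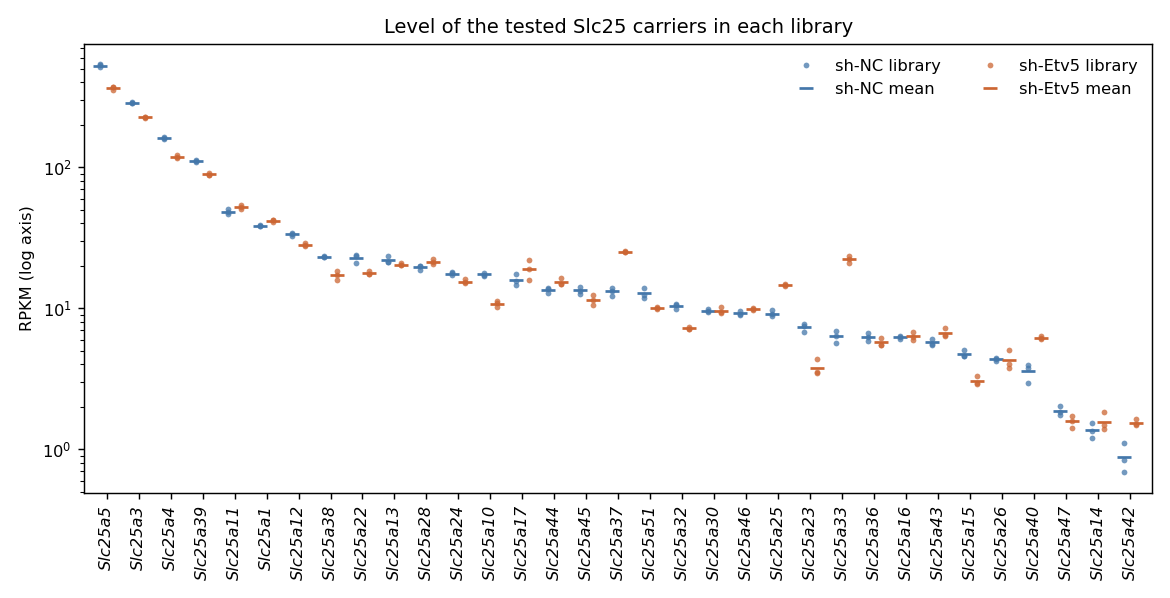
Level of the tested Slc25 members named here in each library, in RPKM on a log axis, with points for the sh-NC and sh-*Etv5* libraries and a bar at each group mean. The levels run from 0.688 RPKM (*Slc25a42*) to 537 RPKM (*Slc25a5*), and *Slc25a33* shows the widest gap between the groups.

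Of the 46 members, 34 passed the filter. Against sh-NC, 12 of these were higher in sh-*Etv5* cells, 14 were lower and 8 were not called. The share called was 76.5%, beside 74.3% of all 10738 genes tested, so the family was called about as often as genes overall. By direction, 35.3% of the members were higher and 41.2% were lower, beside 33.3% and 41.0% of all genes. Called members with an absolute log2 fold change of at least 0.5 numbered 8 of 34, or 23.5%, beside 30.9% of all genes. Of these, 4 were higher and 4 lower, where 15.9% of all genes were higher and 15.0% lower. The groups did not overlap for 28 of the 34 members (82.4%), beside 76.4% of all genes, with 12 members higher and 16 lower beside 34.3% and 42.1%. The median log2 fold change was -0.07 over the members and -0.05 over all genes, and the median absolute value was 0.24 beside 0.31. With libraries rescaled to the same sum, 6 members were higher and 15 lower, and with no filter on low values 7 were higher and 13 lower. The calls lost without the filter were those of *Slc25a11*, *Slc25a17*, *Slc25a28*, *Slc25a43*, *Slc25a44* and *Slc25a45*, which were all small. Across all genes, the same rescaling gave 3124 higher and 4922 lower, beside 3575 and 4399 as deposited.

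**Figure D2:**
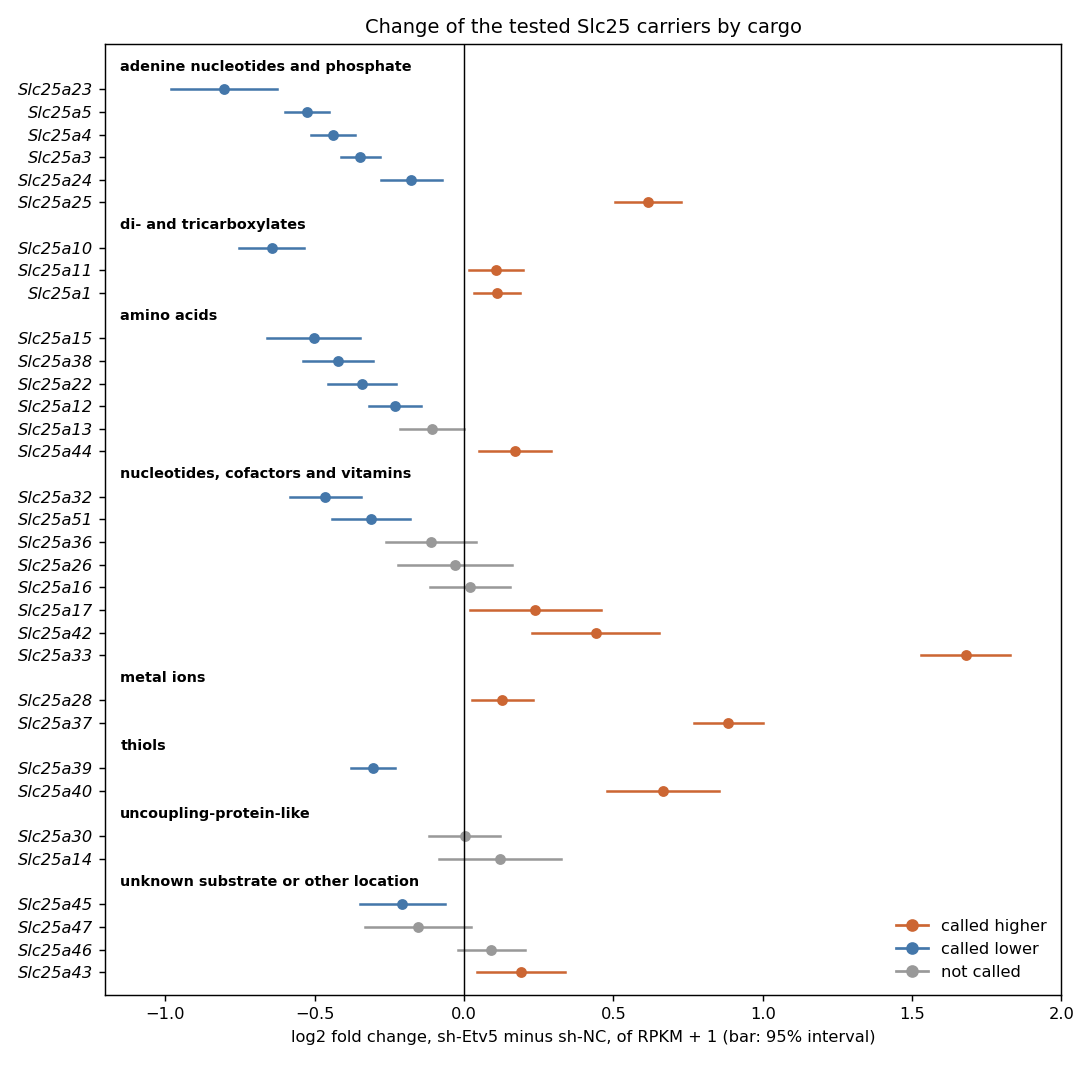
Log2 fold change (sh-*Etv5* minus sh-NC, on log2(RPKM + 1)) of the tested members named here, with 95% confidence intervals from limma, arranged by what each carries and colored by call. Values run from -0.80 for *Slc25a23* to 1.68 for *Slc25a33*, and most members lie close to 0.

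The summed level of the family was lower in sh-*Etv5* cells. The 46 members together came to 1503, 1488 and 1486 RPKM with sh-NC against 1227, 1204 and 1229 RPKM with sh-*Etv5*. The groups did not overlap. Their means were 1492 ± 9.11 and 1220 ± 14.1 RPKM (SD, n = 3), and the sum fell by 18.2%. An exact two-sided permutation test gave p = 0.1, the smallest value that 3 libraries against 3 can give. As a share of all RPKM, the family held 0.464 to 0.465% in sh-NC libraries and 0.361 to 0.365% in sh-*Etv5* libraries. Without *Slc25a5* and *Slc25a3* the sum fell by 7.30%, from 678 ± 6.04 to 629 ± 4.74 RPKM (SD, n = 3). The other 42 members, without *Slc25a4* and *Slc25a39* as well, did not fall together. They summed to 406 ± 2.59 RPKM in sh-NC and 420 ± 3.96 RPKM in sh-*Etv5* (SD, n = 3; exact two-sided permutation p = 0.1), and with libraries rescaled to the same sum to 415 ± 4.14 and 412 ± 5.32 RPKM (p = 0.4, exact). The net decrease of the family sum thus lay in its 4 most abundant genes. Among the other 42 members some fell as well, and rises of others, *Slc25a33* and *Slc25a37* most of all, offset those falls.

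**Figure D3:**
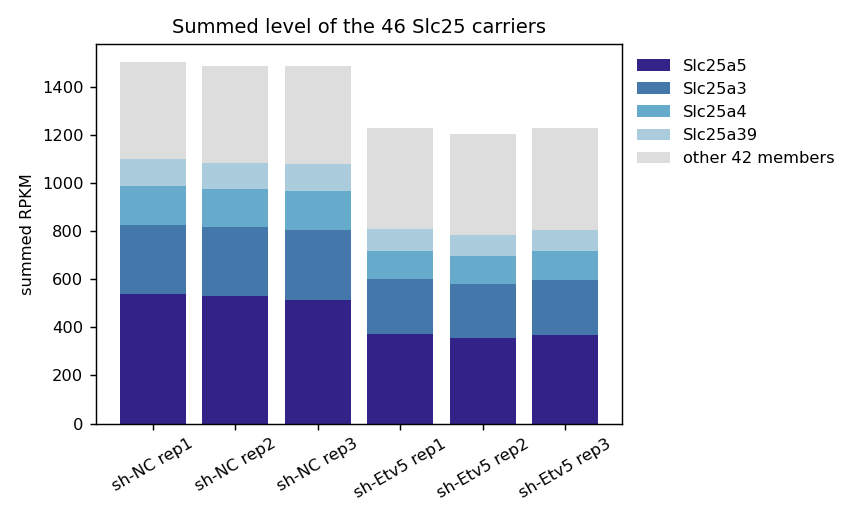
Summed RPKM of the 46 Slc25 members in each library, divided among the most abundant members and the rest. The sh-NC libraries sum to 1486 to 1503 RPKM and the sh-*Etv5* libraries to 1204 to 1229 RPKM, and *Slc25a5* takes 35.3% of the sum in sh-NC and 29.9% in sh-*Etv5*.

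Among the 8 carriers of adenine nucleotides and phosphate, 6 were tested, of which 5 fell and 1 rose. For this and the small cargo groups that follow, the shares over all genes tested were 41.0% lower and 33.3% higher. Differences between cargo groups were not tested. *Slc25a5* (chromosome X, 36795651 to 36798807, GRCm38) encodes ANT2, an ADP/ATP translocase that brings ADP into the matrix in exchange for ATP. It was at 537, 529 and 513 RPKM in sh-NC and at 372, 355 and 369 RPKM in sh-*Etv5*. Every sh-*Etv5* library lay below every sh-NC library, and the log2 fold change was -0.53 (SE 0.0333, limma adjusted p = 8.58e-08). Of the 50-base sequences in its exons, 33.8% also occur in other annotated genes, *Gm5560*, *Gm5529* and *Gm5256* most of all, so its level is uncertain. *Slc25a4* encodes ANT1, the translocase best known from heart and muscle. It was at 164, 158 and 162 RPKM in sh-NC and at 118, 117 and 122 RPKM in sh-*Etv5*, a decrease without overlap (log2 fold change -0.44, SE 0.0327, limma adjusted p = 3.34e-07). None of its 50-base exon sequences occurs in another annotated gene. *Slc25a3*, whose product imports the phosphate used by ATP synthase, was at 287, 287 and 290 RPKM in sh-NC and at 229, 224 and 226 RPKM in sh-*Etv5*. It fell by 21.4% without overlap (log2 fold change -0.35, SE 0.0291, limma adjusted p = 9.04e-07).

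The calcium-regulated ATP-Mg/phosphate carriers changed in opposite directions. These proteins exchange ATP with magnesium for phosphate and thereby set the size of the adenine nucleotide pool in the matrix. *Slc25a25* (chromosome 2, 32414487 to 32451445, minus strand), which encodes SCaMC-2, was at 9.66, 9.09 and 8.80 RPKM in sh-NC and at 14.8, 14.6 and 14.4 RPKM in sh-*Etv5*. It rose without overlap (log2 fold change 0.62, SE 0.0501, limma adjusted p = 6.82e-07). Its exons overlap *Naif1* on the opposite strand, and that gene went from 4.31 to 4.20 RPKM and was not called. *Slc25a23* (chromosome 17, 57043711 to 57059863, minus strand), which encodes SCaMC-3, was at 7.50, 6.80 and 7.68 RPKM in sh-NC and at 3.46, 4.34 and 3.55 RPKM in sh-*Etv5*. It was the member with the largest fall, and its mean fell by 48.4% without overlap (log2 fold change -0.80, SE 0.0801, limma adjusted p = 3.75e-06). Its exons overlap *Gm17168* on the opposite strand. *Slc25a24*, which encodes SCaMC-1, was at 17.7, 17.1 and 18.1 RPKM in sh-NC and at 15.1, 15.3 and 16.1 RPKM in sh-*Etv5*, a smaller decrease (log2 fold change -0.18, limma adjusted p = 0.00488).

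Of the 4 carriers of di- and tricarboxylates, 2 rose, 1 fell and 1, *Slc25a21*, was listed at 0 in every library. *Slc25a10* (chromosome 11, 120491840 to 120499187), whose product exchanges malate or succinate for phosphate, was at 17.7, 17.4 and 17.0 RPKM in sh-NC and at 11.2, 10.9 and 10.2 RPKM in sh-*Etv5*. It fell without overlap (log2 fold change -0.64, SE 0.0495, limma adjusted p = 4.33e-07). Its exons overlap *Gm11788* on the opposite strand. *Slc25a11*, whose product exchanges oxoglutarate for malate, was at 50.3, 46.8 and 48.5 RPKM in sh-NC and at 52.2, 50.7 and 54.2 RPKM in sh-*Etv5*. The groups were close but did not overlap, and the rise was small (log2 fold change 0.11, limma adjusted p = 0.0345). The call was lost with libraries rescaled to the same sum (log2 fold change 0.05). It was also lost without sh-*Etv5* replicate 1 or 3 or without sh-NC replicate 2 or 3. *Slc25a1*, which encodes the citrate carrier, went from 38.6 ± 0.472 to 41.8 ± 0.542 RPKM (SD, n = 3; log2 fold change 0.11, limma adjusted p = 0.013). This call was lost with the same rescaling (log2 fold change 0.05) and without sh-NC replicate 2.

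Of the 9 amino acid carriers, 6 were tested, with 4 lower, 1 higher and 1 not called. *Slc25a15* (chromosome 8, 22375551 to 22398597, minus strand) encodes the ornithine carrier of the urea cycle. It was at 4.59, 4.61 and 5.02 RPKM in sh-NC and at 2.88, 3.34 and 2.94 RPKM in sh-*Etv5*, and it fell by 35.6% without overlap (log2 fold change -0.50, SE 0.0703, limma adjusted p = 6.02e-05). *Slc25a22*, which encodes a glutamate carrier, was at 23.8, 23.5 and 21.1 RPKM in sh-NC and at 18.3, 17.4 and 17.6 RPKM in sh-*Etv5*. It fell as well (log2 fold change -0.34, limma adjusted p = 0.000118). *Slc25a38*, whose product brings glycine into mitochondria for heme synthesis, fell from 23.3 ± 0.332 to 17.2 ± 1.24 RPKM (SD, n = 3; log2 fold change -0.42, limma adjusted p = 2.48e-05).

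The aspartate/glutamate carriers of the malate-aspartate shuttle, aralar and citrin, belong to the same substrate group. *Slc25a12* (aralar) was at 32.3, 33.8 and 34.0 RPKM in sh-NC and at 27.8, 28.9 and 28.1 RPKM in sh-*Etv5*, a decrease without overlap (log2 fold change -0.23, limma adjusted p = 0.000274). *Slc25a13* (citrin) was at 21.5, 21.2 and 23.5 RPKM in sh-NC and at 20.2, 20.1 and 20.9 RPKM in sh-*Etv5*. Its groups did not overlap but it was not called (log2 fold change -0.11, 95% CI -0.21 to 0.00080, limma adjusted p = 0.0675). With libraries rescaled to the same sum it was called (log2 fold change -0.17). *Slc25a44*, which encodes a carrier of branched-chain amino acids, was the member that rose (13.5 to 15.4 RPKM, log2 fold change 0.17, limma adjusted p = 0.0143). That call was lost with the rescaling (log2 fold change 0.11), and without sh-*Etv5* replicate 2 or sh-NC replicate 3.

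The 9 carriers of nucleotides, cofactors and vitamins were all tested, with 4 higher, 2 lower and 3 not called. *Slc25a33* (chromosome 4, 149744036 to 149774277, minus strand), whose product carries pyrimidine nucleotides for mitochondrial DNA and RNA synthesis, had the largest change of the family. It was at 5.69, 6.37 and 6.87 RPKM in sh-NC and at 21.0, 22.5 and 23.6 RPKM in sh-*Etv5*. The lowest sh-*Etv5* library was far above the highest sh-NC library, and the mean rose 3.55-fold, with 6.31 ± 0.592 RPKM in sh-NC and 22.4 ± 1.30 RPKM in sh-*Etv5* (SD, n = 3 each). The log2 fold change was 1.68 (SE 0.0671, 95% CI 1.53 to 1.83, limma adjusted p = 2.13e-09). Its place by mean RPKM among the members moved from 24 in sh-NC to 9 in sh-*Etv5*. Its exons overlap *Gm13068* on the opposite strand, and 12.6% of its 50-base exon sequences lie in that gene, so the share of reads from each could not be separated.

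*Slc25a36*, the other pyrimidine nucleotide carrier, was at 6.26, 6.73 and 5.82 RPKM in sh-NC and at 6.17, 5.51 and 5.50 RPKM in sh-*Etv5*. Its groups overlapped and it was not called (log2 fold change -0.11, 95% CI -0.26 to 0.04, limma adjusted p = 0.162). *Slc25a32*, whose product is a folate and FAD carrier, fell from 10.4 ± 0.511 to 7.25 ± 0.117 RPKM (SD, n = 3; log2 fold change -0.46, limma adjusted p = 1.34e-05). *Slc25a51*, which encodes the NAD carrier, fell from 12.7 ± 1.02 to 10.1 ± 0.162 RPKM (SD, n = 3; log2 fold change -0.31, limma adjusted p = 0.000609). *Slc25a42*, whose product carries coenzyme A, rose at a low level, from 0.883 ± 0.217 to 1.55 ± 0.0709 RPKM (SD, n = 3; log2 fold change 0.44, limma adjusted p = 0.00157).

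*Slc25a17*, which encodes a peroxisomal cofactor carrier, was called at the edge of the threshold with overlapping groups, at 15.7, 14.6 and 17.4 RPKM in sh-NC and at 15.9, 19.1 and 22.1 RPKM in sh-*Etv5* (log2 fold change 0.24, limma adjusted p = 0.0471). The call was lost with the rescaling (log2 fold change 0.18), and without sh-*Etv5* replicate 2 or 3 or sh-NC replicate 1 or 2. *Slc25a26*, which encodes the S-adenosylmethionine carrier, was at 4.36 and 4.28 RPKM and was not called (log2 fold change -0.03, 95% CI -0.22 to 0.16, limma adjusted p = 0.768). *Slc25a16* was not called either (log2 fold change 0.02, limma adjusted p = 0.775).

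Both mitoferrins, which import iron for heme and iron-sulfur cluster synthesis, were higher in sh-*Etv5* cells. *Slc25a37* encodes mitoferrin-1 and lies on the minus strand of chromosome 14 (69241848 to 69285112). It was at 12.2, 14.0 and 13.3 RPKM in sh-NC and at 25.6, 25.0 and 25.0 RPKM in sh-*Etv5*. Its level rose 1.91-fold without overlap (log2 fold change 0.88, SE 0.0519, limma adjusted p = 4.47e-08) and moved from place 17 to place 8 in the family. Its exons overlap *Gm27223* and *Gm31748* on the opposite strand. *Slc25a28* (mitoferrin-2) was at 19.9, 18.8 and 19.9 RPKM in sh-NC and at 22.4, 21.3 and 20.7 RPKM in sh-*Etv5*. Its rise was small (log2 fold change 0.13, limma adjusted p = 0.0256), and the call was lost with libraries rescaled to the same sum (log2 fold change 0.07). It was also lost without sh-*Etv5* replicate 1 or sh-NC replicate 2.

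The carriers linked to glutathione import into mitochondria changed in opposite directions, which brought their levels closer. *Slc25a40* (chromosome 5, 8422850 to 8454797) was at 2.94, 3.95 and 3.80 RPKM in sh-NC and at 6.32, 6.19 and 6.10 RPKM in sh-*Etv5*. It rose without overlap (log2 fold change 0.67, SE 0.0849, limma adjusted p = 2.9e-05). *Slc25a39*, which was far more abundant, was at 111, 108 and 112 RPKM in sh-NC and at 91.7, 88.3 and 88.1 RPKM in sh-*Etv5*. It fell without overlap (log2 fold change -0.30, SE 0.0333, limma adjusted p = 8.56e-06).

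Of the 3 members most like uncoupling proteins, *Slc25a14* and *Slc25a30* were tested and neither was called, with log2 fold changes of 0.12 (limma adjusted p = 0.255) and 0.0026 (limma adjusted p = 0.967). Of the 9 members with another location or no settled substrate, 4 were tested. *Slc25a43* rose (5.72 to 6.67 RPKM, log2 fold change 0.19, limma adjusted p = 0.0232), and *Slc25a45* fell (13.4 to 11.5 RPKM, log2 fold change -0.21, limma adjusted p = 0.0135). The call of *Slc25a43* was lost with the rescaling (log2 fold change 0.14) and without sh-*Etv5* replicate 2 or sh-NC replicate 1 or 3. That of *Slc25a45* was lost without sh-*Etv5* replicate 1 or sh-NC replicate 2. *Slc25a46*, an outer membrane protein with a role in mitochondrial shape, was at 9.21 and 9.88 RPKM and was not called (limma adjusted p = 0.118). *Slc25a47*, known from liver, was at 1.87 and 1.58 RPKM and was not called (limma adjusted p = 0.105), although it was with quantile normalization (log2 fold change -0.28) and without the trend.

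The 12 members that did not pass the filter were low in every library. *Slc25a35* reached 1.13 RPKM in sh-*Etv5* replicate 1, and *Slc25a53* reached 0.631 RPKM. *Slc25a29* (basic amino acids) and *Slc25a18* (glutamate) had highest values of 0.355 and 0.247 RPKM. *Slc25a2*, *Slc25a34*, *Slc25a48*, *Slc25a54*, *Slc25a41* and *Slc25a27* stayed at or below 0.135 RPKM. *Slc25a21* and *Slc25a31*, the latter encoding the ADP/ATP translocase of testis, were listed at 0 in all 6 libraries. The groups overlapped for each of the 12, and without the filter their limma adjusted p-values lay between 0.283 and 1.

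Several members share a substrate, and the balance within such pairs was taken as the difference of their log2(RPKM + 1) in each library. Both genes were tested in 8 pairs, and the groups did not overlap in any of the 8, beside 76.8% of the 561 pairs that can be formed from the tested members. Each pair gave an exact two-sided permutation p of 0.1, the smallest the design allows, and 0.1 after Benjamini-Hochberg adjustment over the 11 pairs computed. *Slc25a33* over *Slc25a36* changed most. The log2 ratio was 0.01 ± 0.175 in sh-NC and 1.80 ± 0.159 in sh-*Etv5* (SD, n = 3), so pyrimidine nucleotide carriers at nearly equal RPKM in sh-NC stood at a ratio of 3.91 in sh-*Etv5*. *Slc25a23* over *Slc25a25* went from -0.29 ± 0.103 to -1.71 ± 0.145 (SD, n = 3). *Slc25a24* over *Slc25a25* went from 0.87 ± 0.0822 to 0.08 ± 0.0647 (SD, n = 3). The ATP-Mg/phosphate carriers kept their order by RPKM, but *Slc25a24* and *Slc25a25* were nearly level in sh-*Etv5*. *Slc25a24* was at 1.92 times the RPKM of *Slc25a25* in sh-NC and 1.06 times in sh-*Etv5*, and *Slc25a23* was at 0.798 and 0.259 times.

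The order of the mitoferrins by RPKM turned. Which of them had more transcript is less certain than the shift of their ratio. Of the 50-base exon sequences of *Slc25a37*, 6.99% also occur in other annotated genes. *Slc25a28* over *Slc25a37* had a log2 ratio of 0.53 ± 0.129 in sh-NC and -0.22 ± 0.0379 in sh-*Etv5* (SD, n = 3), with mitoferrin-2 the higher in every sh-NC library and mitoferrin-1 the higher in every sh-*Etv5* library. *Slc25a39* over *Slc25a40* went from 4.62 ± 0.185 to 3.65 ± 0.0142 (SD, n = 3), an RPKM ratio of 31.0 in sh-NC and 14.4 in sh-*Etv5*. *Slc25a10* over *Slc25a11* went from -1.43 ± 0.043 to -2.18 ± 0.107 (SD, n = 3). The remaining pairs moved little: *Slc25a12* over *Slc25a13* shifted by -0.13, and *Slc25a4* over *Slc25a5* by 0.09 on the log2 scale. The ADP/ATP translocases therefore kept nearly the same RPKM ratio, 0.307 in sh-NC and 0.325 in sh-*Etv5*, although both fell. The 3 pairs with *Slc25a31*, *Slc25a18* or *Slc25a2* hold a gene under the filter, and their ratios mainly follow the partner.

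**Figure D4:**
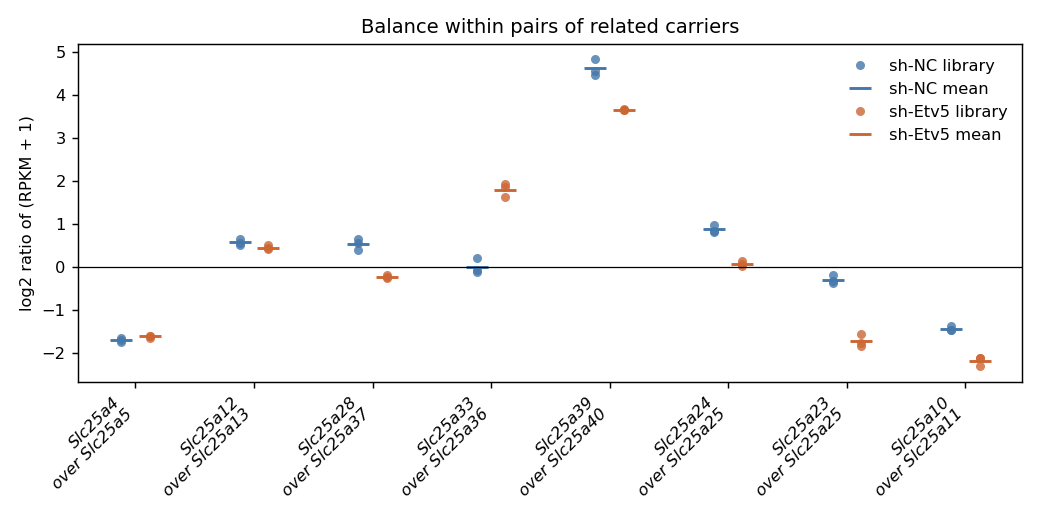
Log2 ratio of RPKM + 1 within the pairs of Slc25 members that share substrates, with 1 point per library and a bar at each group mean. Only for *Slc25a33* over *Slc25a36* does the ratio rise by more than 1 (by 1.79), and for *Slc25a28* over *Slc25a37* the points cross 0.

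Promoter sequence was examined because ETV5 binds DNA through an ETS domain, and members moved in both directions. RefSeq promoters (250 bases before to 50 after the start, GRCm38.p6) were found for 35 of the 46 members, 27 of them tested. Both strands were searched, and a gene was counted where any of its promoters held the motif. The ETS core CCGGAAG occurred in 6 of the 35 (17.1%), beside 9.93% of all 27025 genes with a promoter, and in 5 of the 27 (18.5%), beside 22.8% of the 8317 tested genes with a promoter. Among called members with a promoter it occurred in 2 of 9 that rose and in 3 of 12 that fell. The E-box CACGTG occurred in 6 of the 27 tested members (22.2%), beside 12.4% of tested genes. Among called members with a promoter, 2 of 9 that rose and 1 of 12 that fell held it. The cyclic AMP response element TGACGTCA occurred in 2 of the 27 (7.41%), beside 3.86%. The palindromic NRF1 motif and the NF-kB motif occurred in none of the 27, beside 2.62% and 0.493% of tested genes. A match is a description of the letters and not a bound site.

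The stretches that follow hold the motifs of the member with the largest rise, of the rising ATP-Mg/phosphate carrier, and of the falling members with an ETS core. Each is given 5′ to 3′ on the strand of the gene, with the motif in capitals. Among called members, the ETS core of the rising *Slc25a17* is left out. So are the E-boxes of the rising *Slc25a1* and the falling *Slc25a15*.
Slc25a33, E-box, chr4:149774268-149774297, minus strand: gacgtcacggcccggcctccgcCACGTGac
Slc25a25, cyclic AMP response element, chr2:32424183-32424242, minus strand: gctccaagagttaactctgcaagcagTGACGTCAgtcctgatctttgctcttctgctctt
Slc25a4, ETS core, chr8:46211174-46211203, minus strand: acccctagctcCCGGAAGcgtcttcgcccc
Slc25a3, ETS core, chr10:91124109-91124168, minus strand: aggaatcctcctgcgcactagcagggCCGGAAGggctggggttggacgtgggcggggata
Slc25a38, ETS core, chr9:120110310-120110369, plus strand: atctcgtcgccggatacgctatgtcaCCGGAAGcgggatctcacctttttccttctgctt
In *Slc25a33* the motif begins 8 bases before the RefSeq start. The last 10 bases of the stretch, which hold the whole motif, lie in an exon of that gene in the GENCODE annotation. The *Slc25a4* stretch, placed upstream of the RefSeq start, lies within a GENCODE exon of *Slc25a4* over all 30 bases. The table holds 3 promoters of *Slc25a25*. The stretch shown comes from an internal one, and the promoter at the annotated 5′ end of the gene holds an ETS core that begins 7 bases downstream of the RefSeq start. The other 3 stretches lie outside annotated exons of their genes.

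Genes of the same carrier family outside the symbol rule moved in both directions. Of the 6 (*Slc25a20*, *Ucp1*, *Ucp2*, *Ucp3*, *Mtch1* and *Mtch2*), 4 were tested, with 1 higher, 1 lower and 2 not called. Over all genes the shares were 33.3% higher and 41.0% lower. *Slc25a20*, which encodes the carnitine/acylcarnitine carrier of fatty acid oxidation, rose from 5.84 ± 0.656 to 8.33 ± 0.504 RPKM (SD, n = 3; log2 fold change 0.45, limma adjusted p = 0.000265). *Ucp2*, the uncoupling protein expressed in macrophages, fell from 443 ± 9.84 to 367 ± 12.7 RPKM (SD, n = 3; log2 fold change -0.27, limma adjusted p = 3.65e-05). Without sh-*Etv5* replicate 3, the number called was 4 in place of 2.

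Carrier proteins reach the inner membrane through receptors and channels of the outer membrane and small chaperones that pass them to the TIM22 complex. Of 16 genes of that import route, all tested, 13 fell, 3 were not called and none rose. The median log2 fold change was -0.31, beside -0.05 over all genes, of which 41.0% were lower. *Timm8a1*, a chaperone subunit, fell from 19.2 ± 1.08 to 9.80 ± 0.706 RPKM (SD, n = 3; log2 fold change -0.90, limma adjusted p = 1.38e-07). *Timm29*, a subunit of the TIM22 complex, fell from 25.7 ± 0.988 to 17.4 ± 0.523 RPKM (SD, n = 3; log2 fold change -0.54, limma adjusted p = 8.89e-07). *Tomm5*, a small subunit of the outer membrane channel, fell from 120 ± 3.34 to 82.9 ± 4.80 RPKM (SD, n = 3; log2 fold change -0.53, limma adjusted p = 9.17e-07).

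Of 20 other mitochondrial membrane transporters, 19 were tested, with 10 lower, 5 higher and 4 not called, and a median log2 fold change of -0.17. The shares were 52.6% lower and 26.3% higher, beside 41.0% and 33.3% of all genes. *Sfxn2*, a sideroflexin linked to mitochondrial iron, fell by 0.77 on the log2 scale (limma adjusted p = 2.16e-05). *Mcub*, a dampening subunit of the calcium uniporter, rose by 0.76 on that scale (limma adjusted p = 3.45e-06). *Slc8b1*, the mitochondrial sodium/calcium exchanger, rose by 0.67 on it (limma adjusted p = 1.34e-07).

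Of 37 enzymes that make or use the carried substrates, 33 were tested, with 12 higher, 14 lower and 7 not called, and a median of -0.03. The shares, 36.4% higher and 42.4% lower, were close to the 33.3% and 41.0% of all genes. *Mat2a*, which makes S-adenosylmethionine, the substrate of the *Slc25a26* carrier, fell from 110 ± 3.59 to 45.6 ± 0.858 RPKM (SD, n = 3; log2 fold change -1.25, limma adjusted p = 2e-10), while *Slc25a26* was not called. *Alas1*, the first enzyme of heme synthesis, rose from 6.75 ± 0.155 to 17.2 ± 0.525 RPKM (SD, n = 3; log2 fold change 1.23, limma adjusted p = 1.9e-09). *Fech*, another enzyme of heme synthesis, fell from 10.9 to 8.52 RPKM (log2 fold change -0.32, limma adjusted p = 0.000101). Of the carriers that supply this pathway, the iron carriers were called higher and the glycine carrier *Slc25a38* fell. The rise of the iron carrier *Slc25a28* was small, and its call was lost with libraries rescaled to the same sum. *Mthfd2*, a mitochondrial enzyme of folate metabolism, rose from 58.4 ± 1.12 to 118 ± 4.79 RPKM (SD, n = 3; log2 fold change 1.01, limma adjusted p = 1.32e-09), whereas the folate carrier *Slc25a32* fell. The folate enzymes *Mthfd1*, *Mthfd1l* and *Shmt1* fell like the carrier (log2 fold change -0.58, -0.18 and -0.20), and *Shmt2* was not called.

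**Figure D5:**
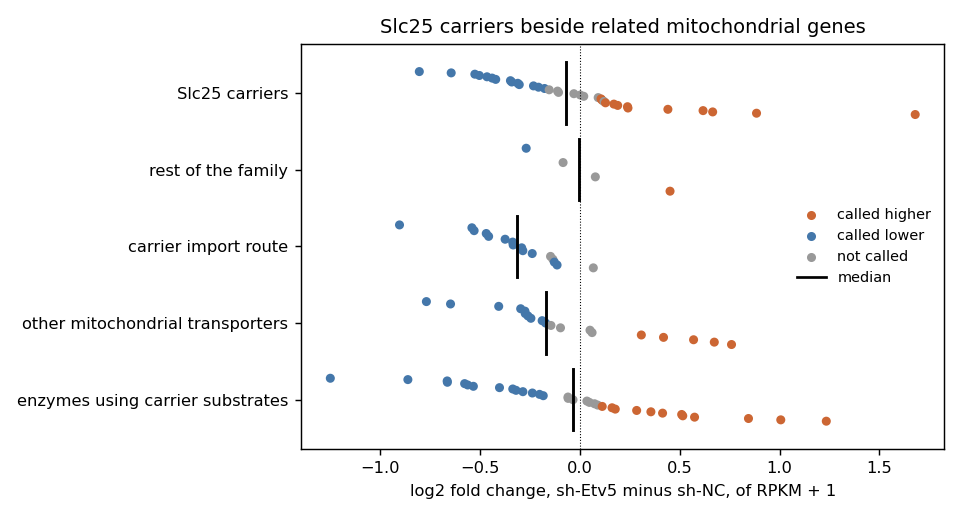
Log2 fold changes (sh-*Etv5* minus sh-NC, on log2(RPKM + 1)) of tested genes in the Slc25 family and in the gene lists set beside it, with 1 point per gene and a line at each median. Colors mark called higher, called lower and not called. The medians are -0.07 for the Slc25 members, -0.31 for the carrier import route, -0.17 for other transporters and -0.03 for the enzymes.

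Other gene families were set beside the Slc25 carriers, of which 12 rose and 14 fell with a median of -0.07. Of 74 tested subunits of the respiratory chain and ATP synthase, 45 fell (60.8%) and 7 rose (9.46%), with a median log2 fold change of -0.20. Of 78 mitochondrial ribosomal protein genes, 38 fell (48.7%) and 16 rose (20.5%), with a median of -0.11. Of 138 tested solute carriers outside this family, 75 rose (54.3%) and 40 fell (29.0%), with a median of 0.18. Over all genes tested, 41.0% fell and 33.3% rose. Differences between these families were described by their counts and not tested. Across the 34 tested members, Spearman's rho between mean RPKM and log2 fold change was -0.21, and over all 10738 genes it was -0.10, with both values taken from the same libraries.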

How the data were processed

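Messenger RNA of Raw264.7 cells was measured in 6 libraries, 3 sh-NC and 3 sh-*Etv5*, grouped by their labels. The authors deposited RPKM values, 1 per gene symbol and library, made from coverage tracks and not log transformed. The submitters' processing notes name mm10. The aligner, the annotation, the strand setting and the read depth are not given in the sources used here. RPKM is relative to the total, so a change of very abundant genes can shift the others, and without strand, overlapping genes can share reads.

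The 10738 of 24786 symbols that reached 1 RPKM in 3 or more libraries were fitted on log2(RPKM + 1) in R 4.3.3 with limma 3.58.1 (moderated by eBayes with trend, two-sided, no covariate), and Benjamini-Hochberg adjusted p-values were taken over all of them. Sums and ratios were compared by exact permutation over libraries. In data simulated for 10738 genes, 95 of 100 genes changed by 0.6 on the log2 scale were recovered. Of 100 changed by 0.3, 56 were recovered, with 15 false calls in all. No other gene was changed there, whereas 74.3% of genes were called in the data. These rates therefore do not carry over to the fit reported here. Coordinates and shared 50-base exon sequences came from GENCODE release M21 (GRCm38), and promoters from RefSeq (GRCm38.p6). Python 3.11.15, NumPy 2.4.6, SciPy 1.17.1, pandas 2.3.3 and matplotlib 3.10.9 were used for the rest.

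The members and gene lists were chosen with earlier results of these data known. Every member was counted by what it carries, and a tested member that is in the counts is not reported here by name. Values in each library were given for called members with an absolute log2 fold change of at least 0.5 and for tested members of pairs, and 3 called genes with the largest change were named from each related list. Library values of *Slc25a3* and *Slc25a17*, means of the remaining members, and values of marker and overlapping genes were given beyond that rule after these were seen. Changes of further heme and folate enzymes were also given beyond it. Of a planned pair with *Slc25a52*, nothing is given, since that gene was not analysed here. Alternatives were no filter, a filter on mean RPKM at 5, pseudocounts of 0.1 and 0.01, rescaling to the same sum, quantile normalization, no trend, untransformed RPKM, the replicate block, a fold threshold, and each library left out. Rescaling to the sum outside the 10 most abundant genes of any library (12 genes), and sums without the 4 most abundant members, were added after seeing the data.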

Additional observations from a re-analysis of the deposited data

How the results depend on the processing

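Of the 26 called members, 19 kept their call under each alternative run that included them, the fold threshold aside, 7 lost it under at least 1, and none changed direction. The number of higher members was 12 as reported, 6 with libraries rescaled to the same sum, 7 with no filter, and 4 with an absolute log2 fold change of at least 0.5, at which 4 were lower, and 1711 and 1611 of all genes were higher and lower. With a library left out, 8 to 10 members were higher and 13 to 14 lower. Related genes outside the symbol rule were called in 2 to 4 cases with a library left out, 4 without sh-*Etv5* replicate 3. The only changes of direction were in uncalled members. *Slc25a14* went to -0.032 with quantile normalization. *Slc25a16* went to -0.033 with the same sum and -0.019 with quantile normalization, and lay between -0.022 (without sh-*Etv5* replicate 3) and 0.059 with a library left out. *Slc25a26* lay between -0.13 and 0.037, above 0 without sh-*Etv5* replicate 2 or 3. *Slc25a30* went to -0.053 with the same sum and -0.0049 with quantile normalization, and lay between -0.036 and 0.029, below 0 without sh-*Etv5* replicate 3 or sh-NC replicate 3. The cause of these shifts was not tested. The summed level fell by 17.7% to 18.55% with any library left out (exact p = 0.2, the smallest possible there) and by 21.7% with the same sum, but without the 4 most abundant members it was 3.48% higher (exact p = 0.1). Correlations of same-numbered deviations were 0.0739, -0.071 and -0.0352, and that of sh-NC replicate 2 with sh-*Etv5* replicate 3 was 0.105. With 3 libraries per group, these values cannot show whether libraries were prepared in pairs. With the replicate block, 12 members were higher and 14 lower, no member's call changed, and *Etv5* had a limma adjusted p of 1.01e-05 at a log2 fold change of -0.78. Without read depth, the counting error of low members cannot be given.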
